A study of Homo sapiens with 12 samples.

Results

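The transcriptomes compared here are those of 2 groups of Caco-2 cells in which ZNF658 was targeted with different reagents, ZNF658 siRNA 2 (Dharmacon, a pool) and ZNF658 siRNA 1 (Ambion). They are 6 of the 12 arrays of the study, 3 per group, chosen by their sample titles alone. The other 6 arrays were transfected with control siRNA 2 (Dharmacon) or control siRNA 1 (Ambion), 3 each, and are set beside the direct comparison. They also enter its normalization, detection filter and estimate of spread. These reagents are as the sample labels give them, whereas the study's own list of siRNAs names only a Dharmacon control for the arrays, so the supplier of control siRNA 1 is not certain. All groups are 1 human colon carcinoma line, and nothing in the labels says whether replicates were separate cultures, so P values measure the spread between these arrays, which may be technical. In the direct comparison the siRNA and its supplier change together, and the 2 cannot be told apart. No tested probe carries the symbol ZNF658, so the depletion of its transcript by either siRNA could not be read from these arrays.

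ZNF658 is a large zinc finger protein that binds the zinc transcriptional regulatory element (ZTRE) in promoters of zinc homeostasis genes. An siRNA is a short duplex that guides the RNA-induced silencing complex to a matching mRNA. Duplexes can also act on other transcripts through partial matches, and some double-stranded RNAs set off an interferon response, in which genes such as IFIT2 and CCL5 are induced. Caco-2 cells are studied mainly as a model of the intestinal epithelium because they can form enterocyte-like monolayers.

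Probe intensities were background corrected, quantile normalized and expressed as log2 values, and all differences below are on that scale, siRNA 2 minus siRNA 1. Between 14454 and 16167 of 47231 probes were detected per array, and 14804 probes entered the test. Of 12 markers listed for a colon epithelial line, EPCAM, CDH1, KRT8, KRT18, KRT19, CDX2 and CDH17 were detected on every array, GPA33 was detected on 1 array, and VIL1, LGALS4, HNF4A and FABP1 were not analysed here because no probe was named for them. A second KRT18 probe was detected on 6 arrays and did not enter the test. Arrays did not all lie nearest to their own group. ZNF658 siRNA 2 replicate 3 correlated with replicates 1 and 2 of its group at 0.983 and 0.971 over the tested probes, and its nearest array was control siRNA 2 replicate 1 at 0.989. ZNF658 siRNA 1 replicate 3 was nearest to control siRNA 1 replicate 1 at 0.99. Control siRNA 2 replicate 3 had the lowest correlations, between 0.939 and 0.973 with all other arrays. Counts of calls are therefore given with and without these arrays.

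Placental hormone genes and genes of squamous epithelium led the differences between ZNF658 siRNA 2 and ZNF658 siRNA 1. With siRNA 2, 107 probes were higher (0.723% of those tested) and 178 were lower (1.2%), with P values from limma adjusted by Benjamini and Hochberg's method, a threshold of 0.05 and a change of at least 1.2-fold. The 285 calls (1.93%) included 124 probes at least 2-fold lower and 39 at least 2-fold higher. At 4-fold, 21 probes were lower and 1 was higher. The number of calls depended on single arrays: 107 without ZNF658 siRNA 2 replicate 1, 156 without its replicate 2, 108 without ZNF658 siRNA 1 replicate 1, 132 without its replicate 2, 319 without its replicate 3, 281 without ZNF658 siRNA 2 replicate 3 and 795 without control siRNA 2 replicate 3, which enters through the shared estimate of spread. With both replicate 3 arrays of the siRNA 2 groups left out, 1638 probes were called. A total of 92 probes, 75 lower and 17 higher, were called whichever of the 12 arrays was left out. When arrays were scaled to a common median instead of quantile normalized, 16.6% of 169 calls were higher, against 37.5% of 285, and the median of all tested probes moved to −0.137 with siRNA 2 minus siRNA 1, against 0.00273. Over 120 named called probes and up to 24 settings each, 549 of 2841 values lost the call and 0 turned their sign. The probes were chosen as called and the settings share arrays, so a turn of sign was unlikely from the start.

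A leading group with reduced levels was the chorionic gonadotropin family, the hormone of the placental trophoblast, which is built of a common alpha chain (CGA) and beta chains from a gene cluster on chromosome 19 (CGB genes). CGB1 was at log2 9.16, 8.43 and 9.26 with siRNA 2 and at 12.39, 12.46 and 12.29 with siRNA 1. The groups were far apart, a 10.8-fold lower level with siRNA 2 (log2 difference −3.43 ± 0.21 SE, adjusted P = 1.1e-06 in limma). CGB5 was at 7.75, 8.04 and 7.36 with siRNA 2, against 10.82, 10.69 and 10.91 with siRNA 1 (−3.09 ± 0.34, adjusted P = 0.00014), and its second probe fell by 2.52. CGB8 and CGB3 had differences of −2.82 and −2.43, both called. CGB7 was not detected with siRNA 2 and was detected on all 3 arrays of siRNA 1, at least 1.66-fold lower (adjusted P = 0.00027). The common alpha chain gene CGA, which lies on chromosome 6, was at 9.65, 8.67 and 9.85 with siRNA 2, against 11.87, 11.63 and 10.95 with siRNA 1 (−2.10 ± 0.32, adjusted P = 0.0027). Its ranges did not overlap either. LHB, the pituitary luteinizing hormone beta gene of the same cluster, fell by 2.49. The CGB genes and LHB are near copies of each other, so these probes may share signal and do not count as independent genes. Every one of these calls was kept without any 1 array.

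The 250 bases before the annotated starts of CGB5, CGB8 and CGB3 are shown because they are near copies, as are the transcripts. They are RefSeq sequences of build GRCh38.p14, from chr19:49043598-49043847 (plus strand), chr19:49049112-49049361 (minus strand) and chr19:49024334-49024583 (minus strand), written 5′ to 3′, and capitals mark the longest run that all 3 share, 74 bases.
CGB5: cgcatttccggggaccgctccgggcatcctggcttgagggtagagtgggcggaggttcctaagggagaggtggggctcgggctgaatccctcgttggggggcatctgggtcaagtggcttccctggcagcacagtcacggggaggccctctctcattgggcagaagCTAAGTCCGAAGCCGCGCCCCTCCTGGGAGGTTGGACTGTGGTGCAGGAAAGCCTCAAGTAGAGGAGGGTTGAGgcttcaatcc
CGB8: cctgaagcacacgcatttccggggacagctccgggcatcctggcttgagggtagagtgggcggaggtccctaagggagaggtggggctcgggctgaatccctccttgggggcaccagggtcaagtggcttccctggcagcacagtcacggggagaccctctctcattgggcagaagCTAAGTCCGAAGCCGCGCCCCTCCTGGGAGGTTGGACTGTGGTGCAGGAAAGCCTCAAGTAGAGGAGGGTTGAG
CGB3: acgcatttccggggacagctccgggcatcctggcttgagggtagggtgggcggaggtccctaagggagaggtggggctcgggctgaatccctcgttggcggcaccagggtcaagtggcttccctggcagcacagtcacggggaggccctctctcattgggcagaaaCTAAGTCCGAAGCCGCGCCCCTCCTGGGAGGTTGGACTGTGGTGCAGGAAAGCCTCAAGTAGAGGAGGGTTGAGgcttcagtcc

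The trophoblast list moved in the same direction, though it holds hormone genes named above and was chosen with earlier results of these data known. Among its called genes were CGA, CGB1, CGB3, CGB5, CGB7 and CGB8, so its calls are in part those already given. Of its 36 measured genes, 0 were higher and 11 were lower, beside 0.723% and 1.2% of all tested probes. Of the 36 differences 29 were below 0, with a median of −0.396, against 0.00273 over all tested probes. Besides the hormone genes, the 11 included HOPX, a homeodomain-only cofactor, ERVW-1 and ERVFRD-1, the endogenous retroviral envelope genes known as syncytins that drive trophoblast fusion, CYP19A1, the aromatase that makes oestrogens, and LGALS13, a placental galectin. HOPX was at 4.70, 5.21 and 4.79 with siRNA 2 and at 7.61, 7.95 and 7.64 with siRNA 1. It was detected on no array of siRNA 2 and on all 3 of siRNA 1, at least 3.73-fold lower (adjusted P = 7.4e-06). ERVW-1 was at 8.06, 8.41 and 8.25 with siRNA 2, against 9.70, 9.60 and 9.35 with siRNA 1 (−1.31 ± 0.19, adjusted P = 0.0018), and its groups did not overlap. CYP19A1 fell by 1.16 and LGALS13 was lower too (−1.48), while ERVFRD-1 fell by 1.07 and lost its call without ZNF658 siRNA 2 replicate 1 or 2 or ZNF658 siRNA 1 replicate 1 or 2. Apart from HOPX and the hormone genes, the genes of this list are named here after their values were seen. Of the transcription factors in the list, TFAP2A, TFAP2C, GATA3 and CDX2 had differences of −0.21, −0.25, 0.05 and −0.07, none called. KISS1, which encodes a peptide abundant in trophoblast, had a difference of 1.09 and was not called. HAND1, a trophoblast factor in the mouse described below, was called higher (1.50) and is not counted in this list.

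A second set with reduced levels came from the epidermal differentiation complex on chromosome 1, whose small proline-rich proteins (SPRR) cross-link into the envelope of squamous epithelia. SPRR2G had the largest fall of all tested probes. It was at 6.31, 6.17 and 7.53 with siRNA 2 and at 10.36, 9.98 and 10.45 with siRNA 1, 12.1-fold lower (−3.59 ± 0.29, adjusted P = 9.3e-06). Replicate 3 of siRNA 2 was the highest of its group and still lay far below every array of siRNA 1. SPRR3 was at 5.58, 6.39 and 5.97 with siRNA 2, against 7.95, 7.93 and 8.23 with siRNA 1 (−2.06 ± 0.23, adjusted P = 2e-04). SPRR2D fell by 2.02 and SPRR2F was at least 2.44-fold lower. Both were named after their values were seen, and SPRR2 genes are close copies whose probes may share signal. In the squamous list the median was −0.361. Of 27 measured genes, 0 were higher and 5 were lower, beside 0.723% and 1.2% of all tested probes. Besides SPRR3 these were the keratin KRT80 (−1.15), the calcium-binding protein S100A9 (−1.32), the surface protein LYPD3 (−0.82) and the transcription factor KLF4 (−1.32). The calls for S100A9, LYPD3 and KLF4 were each lost without some single ZNF658 arrays, among them ZNF658 siRNA 1 replicate 1 for all 3. In the authors' own normalized values the median of the list was −0.128.

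Promoters of SPRR2G, SPRR3 and CGA are shown because all 3 genes moved together and each holds the letters TATAAA about as far from the start as a TATA box lies. They come from RefSeq, GRCh38.p14, chr1:153150891-153151140 (minus strand), chr1:153001499-153001748 (plus strand) and chr6:87095107-87095356 (minus strand), 5′ to 3′, with TATAAA in capitals.
SPRR2G: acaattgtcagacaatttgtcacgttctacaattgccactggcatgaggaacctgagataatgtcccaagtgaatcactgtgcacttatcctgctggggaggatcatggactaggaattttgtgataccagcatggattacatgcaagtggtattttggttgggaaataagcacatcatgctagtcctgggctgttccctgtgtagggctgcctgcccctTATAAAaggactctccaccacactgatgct
SPRR3: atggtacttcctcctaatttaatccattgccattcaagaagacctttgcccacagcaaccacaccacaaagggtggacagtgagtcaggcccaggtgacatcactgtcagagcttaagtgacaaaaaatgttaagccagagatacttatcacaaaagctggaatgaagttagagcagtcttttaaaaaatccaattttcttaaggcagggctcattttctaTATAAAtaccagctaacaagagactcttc
CGA: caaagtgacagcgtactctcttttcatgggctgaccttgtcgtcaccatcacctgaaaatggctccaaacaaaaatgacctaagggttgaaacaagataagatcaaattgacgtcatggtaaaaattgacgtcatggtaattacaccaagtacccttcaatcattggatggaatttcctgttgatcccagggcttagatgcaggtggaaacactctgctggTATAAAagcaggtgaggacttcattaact

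The motif begins 30 bases before the start in SPRR2G and 29 bases before it in SPRR3 and CGA. Promoters were matched by symbol for 111 genes with a lower probe and 64 with a higher probe, of 231 named genes called, using the first promoter listed for a gene. TATAAA on either strand stood in 22 of the 111 (19.8%) and 10 of the 64 (15.6%), against 5.59% of 7498 promoters of tested genes and 11.1% of all 27305 promoters. The AP-1 site TGANTCA stood in 8.11% of the lower, 1.56% of the higher and 3.72% of the tested promoters. For the AP-2 site GCCNNNGGC the shares were 22.5%, 15.6% and 27.7%, and for the CCAAT box 36%, 37.5% and 36.5%. These shares describe the letters in the windows and were not tested.

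Other strongly reduced genes were of mixed function. KYNU encodes kynureninase, an enzyme of tryptophan breakdown. It was at 5.20, 5.03 and 5.98 with siRNA 2, detected on 1 of 3 arrays, and at 8.85, 8.83 and 8.46 with siRNA 1 (−3.31 ± 0.25, adjusted P = 7.4e-06), and its second probe was called in the same direction. BCAR4, a long non-coding RNA first described in tamoxifen-resistant breast cancer cells, fell by 2.72. TREML2, a receptor of the triggering receptor family, was detected on 0 arrays of siRNA 2 and 3 of siRNA 1, at least 4.81-fold lower (adjusted P = 3.8e-05). TNFRSF1B, which encodes tumour necrosis factor receptor 2, was at 5.62, 5.83 and 7.27 with siRNA 2, against 8.76, 8.24 and 8.98 with siRNA 1. Its difference was −2.42 ± 0.36 (adjusted P = 0.0018), and replicate 3 of siRNA 2 was the nearest to siRNA 1. HEY1, a Notch target, fell by 2.21, and SLC13A4, a sulphate transporter, by 2.20. CDKN1A, the cell cycle inhibitor p21 and the single call among 17 measured p53 targets, was at 8.49, 8.69 and 8.82 with siRNA 2, against 10.12, 9.84 and 10.47 with siRNA 1 (−1.48 ± 0.19, adjusted P = 5e-04). Over all tested probes 1.93% were called.

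CYP1A1, a cytochrome P450 that the aryl hydrocarbon receptor induces through xenobiotic response elements, was at 5.51, 6.14 and 5.00 with siRNA 2 and at 8.32, 7.68 and 7.82 with siRNA 1 (−2.39 ± 0.27, adjusted P = 0.00021). It was detected on 1 array of siRNA 2 and on all 3 of siRNA 1. Its promoter is given for the GCGTG core of such elements (RefSeq, GRCh38.p14, chr15:74725529-74725778, minus strand, 5′ to 3′, core in capitals), which stands in 46.3% of the promoters of tested genes. The core, on either strand, stood in 29.7% of the promoters of lower genes and 50% of those of higher genes.
CYP1A1: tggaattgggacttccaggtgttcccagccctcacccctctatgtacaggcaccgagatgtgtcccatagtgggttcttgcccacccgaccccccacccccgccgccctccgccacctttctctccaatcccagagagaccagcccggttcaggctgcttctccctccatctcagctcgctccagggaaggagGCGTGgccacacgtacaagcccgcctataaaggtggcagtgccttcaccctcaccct

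The probes with higher levels with siRNA 2 were led by MYCT1, a nuclear target of MYC. Its probes were at 8.83, 7.74 and 8.49 with siRNA 2, against 6.20, 5.87 and 6.24 with siRNA 1 (2.25 ± 0.36, adjusted P = 0.0033), and at a difference of 1.22 for the second probe, whose call was lost without any of 9 single arrays. CDH10, a neuronal cadherin, was at 7.42, 7.35 and 7.77 with siRNA 2 and at 5.62, 5.67 and 5.42 with siRNA 1 (1.94 ± 0.24, adjusted P = 0.00039). It was detected on 3 arrays of siRNA 2 and 1 of siRNA 1. The 15 named probes also held the adhesion molecule gene FLRT3 (1.46), the protocadherin PCDH18 (1.35), the tetraspanin TSPAN4 (1.35) and the membrane metalloprotease MMP16, which was detected on 2 arrays of siRNA 2 and 0 of siRNA 1, at least 1.50-fold higher. Others were the myo-inositol transporter SLC5A3, at least 2.12-fold higher, the GABA receptor subunit GABRP (1.59), the ferric reductase CYBRD1 (1.57), the amino acid transporter SLC16A10 (1.33) and the betaine transporter SLC6A12 (1.31). The secreted Wnt-pathway modulator DKK3 (1.40) and the serine protease HTRA1 (1.33) were called too.

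HAND1, a basic helix-loop-helix factor of heart and trophoblast giant cells in the mouse, was at 9.34, 9.56 and 9.13 with siRNA 2, against 7.51, 8.09 and 7.93 with siRNA 1 (1.50 ± 0.21, adjusted P = 0.0011). CAVIN1, a coat protein of caveolae, was at 11.43, 11.01 and 11.20 with siRNA 2, against 9.85, 9.75 and 10.05 with siRNA 1 (1.33 ± 0.15, adjusted P = 0.00016). In both genes the lowest array of siRNA 2 lay above the highest array of siRNA 1. MYCT1 by its first probe, CDH10, SLC5A3, HAND1, FLRT3, SLC16A10 and CAVIN1 kept their calls without any 1 array. CYBRD1 lost its call without ZNF658 siRNA 2 replicate 1, and GABRP, MMP16, DKK3, PCDH18, TSPAN4, HTRA1 and SLC6A12 each lost theirs without ZNF658 siRNA 1 replicate 1 and at least 2 other single arrays.

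**Figure D1:**
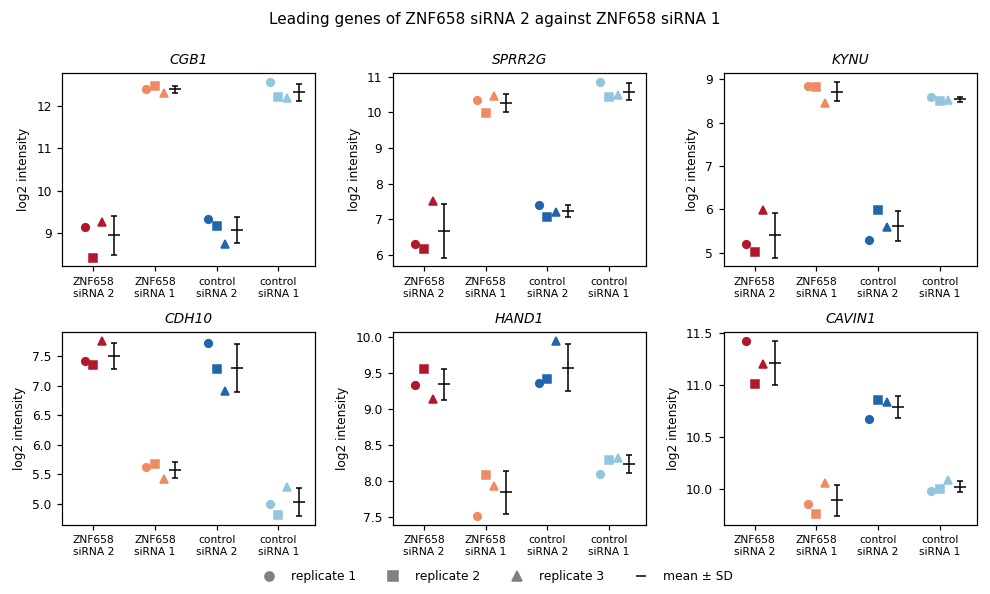
Normalized log2 intensity (vertical axes) of 6 genes on each array of ZNF658 siRNA 2, ZNF658 siRNA 1, control siRNA 2 and control siRNA 1, with symbols for replicates 1 to 3 and the mean ± SD of 3 arrays beside them. CGB1, SPRR2G and KYNU lie lower with siRNA 2 and CDH10, HAND1 and CAVIN1 higher, with no overlap between the ZNF658 groups, and the control groups take the same order.

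The 6 control arrays show how far the same genes differed between the 2 control siRNAs, labelled with the same 2 suppliers, without a ZNF658 siRNA. Control siRNA 2 against control siRNA 1 gave 301 calls (2.03%), 75 higher (0.507%) and 226 lower (1.53%). No array is shared with the direct comparison, though the normalization and the estimate of spread are. Of the 285 probes called between the ZNF658 siRNAs, 265 (93%) had the same sign between the controls, against 54.6% of all tested probes. Of them 135 (47.4%) were also called there in the same direction, which is 44.9% of the 301, and 0 were called in the opposite direction. The share was 64% for the 178 lower probes (114) and 19.6% for the 107 higher ones (21). Among the 124 probes at least 2-fold lower, 118 had the same sign and 90 were called between the controls.

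The most reduced genes had similar differences in both comparisons, and the leading higher genes varied. CGB1, with −3.43 between the ZNF658 siRNAs, was at 9.34, 9.17 and 8.74 with control siRNA 2 and at 12.55, 12.21 and 12.17 with control siRNA 1, a difference of −3.23. SPRR2G had −3.37 between the controls, KYNU −2.91, CGA −2.06 and HEY1 −1.77. CDH10 was at 7.73, 7.28 and 6.91 with control siRNA 2 and was not detected with control siRNA 1, at least 3.00-fold higher. HAND1 had 1.34 and GABRP 1.64. CAVIN1 had 1.33 between the ZNF658 siRNAs and 0.77 between the controls. MYCT1, by its first probe, had 2.25 between the ZNF658 siRNAs and 0.99 between the controls, and DKK3 had 1.40 between the ZNF658 siRNAs and 0.45 between the controls, where neither was called. Over the 285 probes, the median size of the difference was 1.07 between the ZNF658 siRNAs and 0.789, taken in the same direction, between the controls, and Pearson's r was 0.897 across probes, which are not independent and were chosen by 1 of the 2 comparisons. For the higher probes alone these medians were 0.917 and 0.502, and for the lower probes 1.17 and 1.05. Placed on a scale from 0, the mean of ZNF658 siRNA 1, to 1, the mean of ZNF658 siRNA 2, the median of the 285 probes was at 0.811, 0.796 and 0.862 on the arrays of control siRNA 2, and at 0.0246, 0.0917 and 0.095 on those of control siRNA 1. Of the 92 probes called without any 1 array, 90 had the same sign between the controls. The share of 93% was 78.3% without ZNF658 siRNA 2 replicate 3, 68% without ZNF658 siRNA 1 replicate 3, 71.1% without control siRNA 2 replicate 3 and 48.2% without both replicate 3 arrays of the siRNA 2 groups, where 1638 probes were called.

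**Figure D2:**
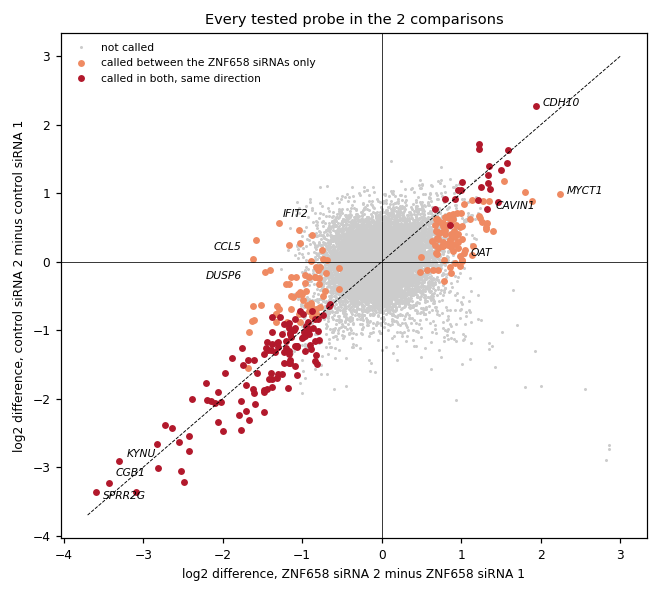
Log2 difference between the ZNF658 siRNAs (horizontal) against that between the control siRNAs (vertical), 1 point for each of 14804 tested probes, with the dashed line at equal differences. Called probes lie along the dashed line at the lower left, where SPRR2G, CGB1 and KYNU reach −3 in both, while CCL5, IFIT2, DUSP6 and OAT are called between the ZNF658 siRNAs and lie near or beyond 0 between the controls.

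The other 20 of the 285 probes had the opposite sign between the controls. They included CCL5, IFIT2, JUN, TPM1 and PEG10. CCL5, a chemokine of the antiviral response, was at 6.83, 7.04 and 7.29 with ZNF658 siRNA 2 and at 8.38, 8.58 and 9.06 with ZNF658 siRNA 1 (−1.62 ± 0.27, adjusted P = 0.0041), whereas it was at 7.49, 7.44 and 6.55 with control siRNA 2 and at 7.38, 7.09 and 6.88 with control siRNA 1 (0.05). The ZNF658 groups were separate and the control groups overlapped. Its second probe was detected on 0 arrays of ZNF658 siRNA 2 and 3 of ZNF658 siRNA 1, at least 1.64-fold lower (adjusted P = 0.0054). IFIT2, an antiviral tetratricopeptide protein, was at 6.04, 5.93 and 6.30 with ZNF658 siRNA 2, against 7.61, 7.33 and 7.22 with ZNF658 siRNA 1 (−1.29 ± 0.23, adjusted P = 0.0068). On the control arrays it was near the detection level, at 5.46, 6.12 and 5.59 with control siRNA 2 and 5.17, 5.08 and 5.25 with control siRNA 1. Its call was lost without ZNF658 siRNA 1 replicate 1. ISG20, an interferon-induced exonuclease, fell by 1.40, with a small difference of the same sign between the controls (−0.12), and lost its call without any of 4 single ZNF658 arrays.

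The whole interferon list did not move as one. Of 28 measured genes, 0 were higher and 3 were lower (IFIT2, ISG20 and CCL5), beside 0.723% and 1.2% of all tested probes. The list had a median of −0.208, against −0.0611 between the controls. The median was −0.104 in the authors' normalized values, −0.126 without background correction and −0.334 after median scaling. With that scaling the median of all tested probes was −0.137. IFIT1 was at 6.04, 6.43 and 6.78 with ZNF658 siRNA 2 and at 7.34, 7.57 and 7.05 with ZNF658 siRNA 1, not called (−0.91 ± 0.30, adjusted P = 0.16). The double-stranded RNA sensor gene IFIH1 had −1.04 (adjusted P = 0.12). In both genes the groups did not overlap, though the test was not passed.

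Further genes with a difference between the ZNF658 siRNAs and, apart from JUN, little between the controls were named after their values were seen. DUSP6, a phosphatase that restrains ERK, was at 6.61, 6.46 and 7.18 with siRNA 2 and at 8.18, 8.29 and 8.19 with siRNA 1 (−1.47 ± 0.24, adjusted P = 0.004), with −0.15 between the controls. JUN, an AP-1 subunit, was not detected with siRNA 2 and was at least 1.16-fold lower (adjusted P = 0.041), a call lost without any of 9 single arrays. Its fitted difference between the controls had the opposite sign (0.47). It was detected on no control array, so that size is uncertain. OAT, the mitochondrial ornithine aminotransferase, was at 10.39, 10.46 and 10.42 with siRNA 2, against 9.30, 9.19 and 9.67 with siRNA 1 (1.04 ± 0.15, adjusted P = 0.0017), with 0.13 between the controls. LAYN, a hyaluronan receptor, was at 8.05, 7.84 and 7.80 with siRNA 2, against 6.81, 6.84 and 7.01 with siRNA 1 (1.01 ± 0.17, adjusted P = 0.0058), and its call was lost without ZNF658 siRNA 2 replicate 1. DUSP6 and OAT were called whichever array was left out. OAT and LAYN were not called after median scaling.

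**Figure D3:**
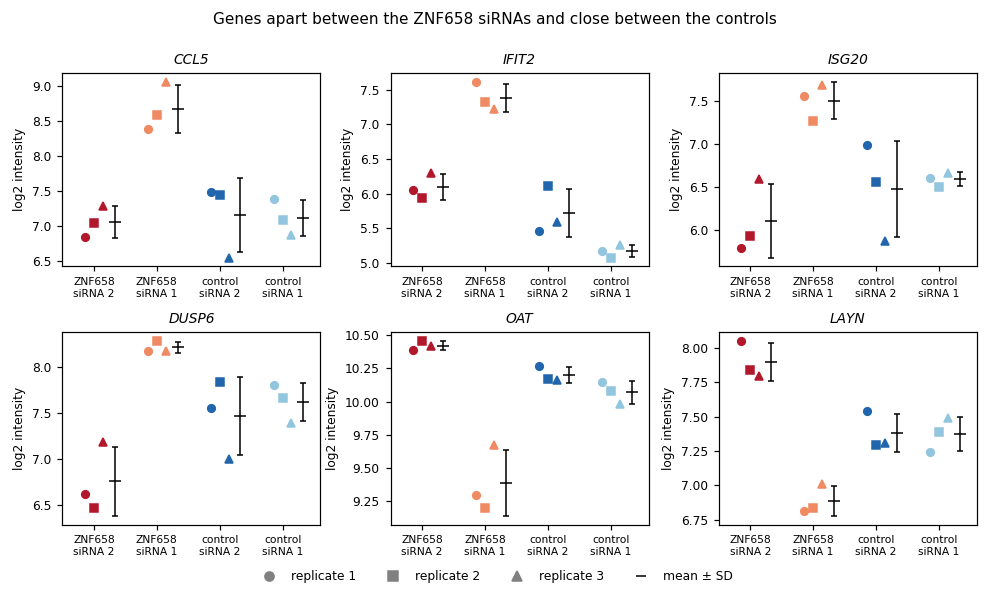
Normalized log2 intensity (vertical axes) of CCL5, IFIT2, ISG20, DUSP6, OAT and LAYN on each array of the 4 groups, with the mean ± SD of 3 arrays. The ZNF658 siRNA 2 and ZNF658 siRNA 1 arrays are separate in each panel, and CCL5, for example, lies between 6.55 and 7.49 on all 6 control arrays.

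Whether the difference between the ZNF658 siRNAs itself differed from that between the controls was tested for every probe. In limma 0 of 14804 probes passed, with a smallest adjusted P of 0.251, while 1597 had an unadjusted P value under 0.05, where 740.2 are the number that a uniform spread of P values gives. Among named probes the smallest unadjusted P values toward lower values included those of IFIT2 (difference of differences −1.85), ZFAS1, a small nucleolar RNA host gene (−1.01), both CCL5 probes (−1.89 and −1.66) and JUN (−1.50). Toward higher values they included STK31 (2.19), NUP58 (1.53), CNBP (3.62), LARP1B (1.35) and ZNF326 (1.65). CNBP was split within 2 groups, at 7.17, 7.855 and 5.297 with ZNF658 siRNA 2 and at 5.839, 7.764 and 7.649 with control siRNA 1. Its high arrays, replicates 1 and 2 of ZNF658 siRNA 2 and replicates 2 and 3 of control siRNA 1, were also high for the rRNA probe described below. The part of this split in the difference of differences of CNBP was not tested. For IFIT2, JUN, NUP58, CNBP, LARP1B and the dimmer CCL5 probe at least 1 group was not detected on any array, so these fitted sizes are uncertain. Called probes without ZNF658 siRNA 2 replicate 3 numbered 31 and those without ZNF658 siRNA 1 replicate 3 numbered 19, and 0 were called without any other single array. With both replicate 3 arrays of the siRNA 2 groups left out, 1467 were called.

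Some gene lists had medians away from that of all tested probes (0.00273) with few or no members past the test. After median scaling the median of all tested probes was −0.137, and the median-scaled values below are to be read beside it. Over all tested probes 0.723% were called higher and 1.2% lower. Of 27 measured glycolysis and hypoxia genes, 23 differences were above 0 with a median of 0.388, against 0.0155 between the controls. The median was 0.234 after median scaling, where 1 gene was called, and 0.232 in the authors' normalized values. LDHA, which encodes lactate dehydrogenase A, was at 13.55, 13.58 and 13.50 with siRNA 2 and at 12.62, 12.97 and 12.97 with siRNA 1 (0.69 ± 0.14, adjusted P = 0.021). P4HA1, a collagen prolyl hydroxylase subunit, rose by 1.04, and ADM, which encodes the peptide adrenomedullin, fell by 1.17. These 2 higher and 1 lower calls were each lost without ZNF658 siRNA 2 replicate 1, ZNF658 siRNA 2 replicate 2 or ZNF658 siRNA 1 replicate 1. GAPDH and the aldolase gene ALDOA had 0.43 and 0.55, not called. ALDOA, and DSP and CDH3 below, were picked after their values were seen. Of 37 simple epithelial genes, 29 were above 0, with a median of 0.309 (0.137 after median scaling) against −0.0122 between the controls, and the keratin KRT23 was lower (−0.67), a call lost without any of 9 single arrays and after median scaling. The desmoplakin gene DSP and the cadherin gene CDH3 had 0.74 and 0.92, not called. Of 68 cell cycle genes, 53 were above 0, with a median of 0.197 (0.0211 after median scaling) against 0.074, and KIF20A, a mitotic kinesin, was called higher (0.88), a call lost without any of 9 single arrays and after median scaling. Of 25 cholesterol genes, 21 were above 0 with a median of 0.226 (0.0321 after median scaling) and 0 were called.

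Beside the calls in this paragraph stand 0.723% called higher and 1.2% called lower over all tested probes. The actin list had 3 higher and 0 lower calls of 41: the skeletal actin gene ACTA1 (1.21) and the tropomyosin genes TPM2 (0.93) and TPM1 (0.48). Of the 41 differences 15 were below 0. TPM2 was at 10.78, 10.92 and 10.53 with siRNA 2, against 9.79, 9.80 and 9.84 with siRNA 1 (adjusted P = 0.0055). TPM1 lost its call without any of 11 single arrays. The median of the list, 0.0561, was −0.0974 after median scaling, where 0 of the 41 were called. With that scaling the median of all tested probes was −0.137. In the list of unfolded protein and integrated stress response genes, 0 of 39 were higher and 3 were lower, with a median of −0.121: the co-chaperone DNAJC3 (−1.17), the transcription factor ATF3 (−0.80) and the cystine transporter SLC7A11 (−1.16). Their differences between the controls were −0.96, −0.84 and −1.47. Among 17 imprinted and fetal growth genes, SNRPN was higher (0.95) and H19 (−1.67), PEG10 (−0.74) and AFP (−0.92) were lower. Each of the 4 lost its call when some single arrays were left out. SNURF, which overlaps SNRPN and was named after its value was seen, was called higher too (0.93, adjusted P = 0.0079 in limma). DPP4, an intestinal brush border peptidase, was the 1 lower call among 14 enterocyte genes, at 6.66, 6.61 and 7.02 with siRNA 2 and 8.27, 8.55 and 8.03 with siRNA 1 (−1.52 ± 0.20, adjusted P = 0.00073).

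Of 24 measured zinc genes 2 were called, 1 in each direction, beside 1.93% of all tested probes, and 1 after median scaling. SLC39A14, a zinc and iron importer, was higher (0.69, adjusted P = 0.04, lost without any of 10 single arrays), and MT4, a metallothionein of squamous epithelia, was lower, detected on 0 arrays of siRNA 2 and 3 of siRNA 1, at least 1.94-fold (adjusted P = 0.00044). SLC30A5, a zinc exporter gene whose promoter holds a ZTRE, was at 9.14, 9.16 and 9.30 with siRNA 2 and at 9.35, 9.51 and 9.55 with siRNA 1. The groups did not overlap, but the difference of −0.27 ± 0.18 was not called (adjusted P = 0.54), and its 3 probes had the same sign. The zinc chaperone gene ZNG1A, also picked after its value was seen, had −0.37, not called, and its close copies ZNG1C and ZNG1E, whose probes may share signal, had 0.12 and 0.11. The SLC30A5 promoter is shown for its element (RefSeq, GRCh38.p14, chr5:69093764-69094013, plus strand, 5′ to 3′), with the half-sites CACTCC and GGAGTG in capitals.
SLC30A5: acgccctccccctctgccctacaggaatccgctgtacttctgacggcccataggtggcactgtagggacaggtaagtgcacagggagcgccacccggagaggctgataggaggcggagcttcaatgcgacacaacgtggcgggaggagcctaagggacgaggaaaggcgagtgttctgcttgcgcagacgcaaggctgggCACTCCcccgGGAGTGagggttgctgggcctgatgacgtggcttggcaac

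Half-sites facing each other in this order, 1 to 10 bases apart, stood in 5 of 7498 promoters of tested genes (0.0667%) and in 0.0256% of all 27305, those of ADO, PRMT9, SELENOT, SLC12A3 and SLC30A5. None of these genes was called, with differences between −0.27 and 0.28. The search took only these exact letters, upstream of the start. The ZTRE motif given in the paper allows other bases and a wider gap, and the paper searched either side of the start. Elements of that wider form were not counted here, and the response of genes that hold them was not tested. The single half-site CACTCC, on either strand, stood in 8.11% of the promoters of lower genes, 20.3% of those of higher genes and 16.5% of those of tested genes.

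Ribosomal genes gave no call for structural proteins of the cytosolic ribosome. Of 42 large subunit and 26 small subunit protein genes, 0 were called, with medians of −0.0499 and −0.0446 (−0.213 and −0.181 after median scaling). The median of all tested probes was 0.00273, and −0.137 after median scaling. Over all tested probes 1.93% were called, so 0 or 1 calls in the lists of this paragraph are near that share. At an unadjusted P value under 0.05 there were 3 and 2 in limma, beside 2260 of all 14804 tested probes. RPS26 was at 11.60, 11.84 and 11.88 with siRNA 2 and at 12.43, 12.80 and 11.96 with siRNA 1 (−0.62 ± 0.20, adjusted P = 0.15). RPS18 had −0.42, RPL7 −0.39 and RPL32 −0.22, none called. Of 64 ribosome biogenesis factors and 13 RNA polymerase I genes, 0 were called, with medians of 0.00209 (−0.179 after median scaling) and −0.158 (−0.277 after median scaling). MRPS6, a mitochondrial ribosomal protein gene, was the 1 call of 74 of its list (0.91) and EIF2B2, a subunit of a translation initiation factor, the 1 call of 40 translation factors (−0.65). The call for EIF2B2 was lost without any of 9 single arrays and that for MRPS6 without any of 4, and both were lost after median scaling. Small nucleolar RNA host genes had a median of −0.221 between the ZNF658 siRNAs and 0.277 between the controls, with 0 calls of 17 in the direct comparison. ZFAS1 was at 12.50, 12.65 and 12.59 with ZNF658 siRNA 2 and 12.90, 12.94 and 12.57 with ZNF658 siRNA 1, which overlap, and at 12.96, 13.17 and 13.10 with control siRNA 2 and 12.45, 12.37 and 12.04 with control siRNA 1, which do not.

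**Figure D4:**
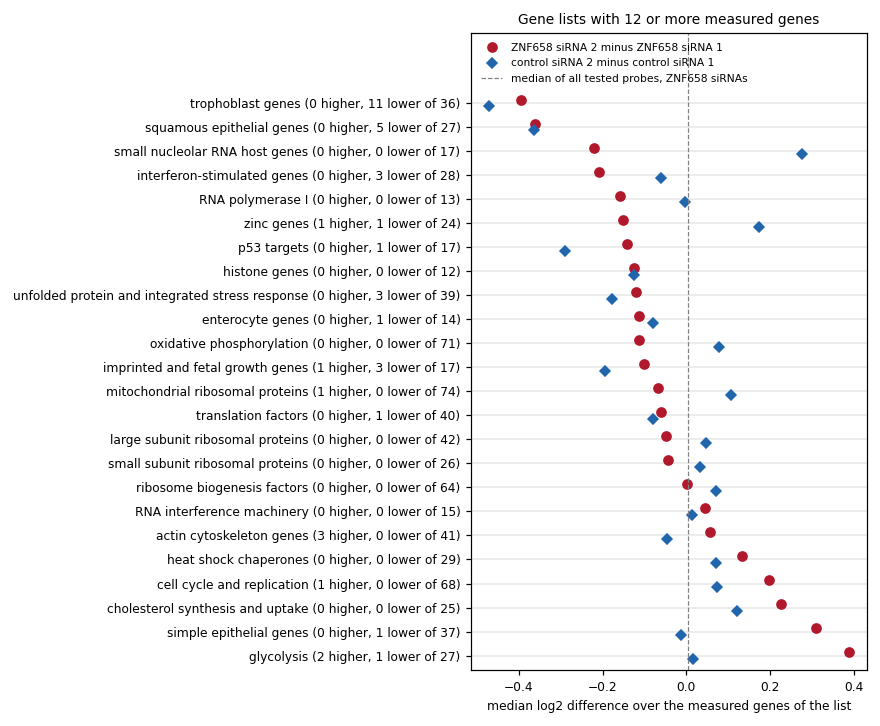
Median log2 difference over the measured genes of each list (horizontal axis) between the ZNF658 siRNAs (circles) and between the control siRNAs (diamonds), with the calls of the direct comparison in the labels. The trophoblast and squamous lists lie near −0.4 in both, while the glycolysis list lies at 0.388 between the ZNF658 siRNAs and near 0 between the controls.

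Some probes differed more among arrays of 1 group than between groups. The 18S rRNA probe RNA18SN5 was at 13.99 and 14.55 on replicates 1 and 2 of ZNF658 siRNA 2 and at 9.88 on replicate 3, against 9.58, 9.56 and 10.70 with ZNF658 siRNA 1. Its difference of 2.86 ± 1.07 was not called (adjusted P = 0.21). Of the 2 measured rRNA genes, 1 was called without replicate 3 of ZNF658 siRNA 2, where their median was 3.67, against 2.26 with that array, and 1 was called after median scaling. Control siRNA 1 was split in the same way, at 10.74 on replicate 1 and 14.55 and 14.74 on replicates 2 and 3, while control siRNA 2 was at 10.21, 10.06 and 11.56. IGF2, a fetal growth factor gene, was at 10.28, 10.71 and 7.98 with ZNF658 siRNA 2 and at 8.19, 8.20 and 8.03 with ZNF658 siRNA 1. EXPH5, which encodes an effector of Rab27 in secretion, was at 8.07, 8.38 and 6.54 with ZNF658 siRNA 2, against 6.38, 6.24 and 6.34 with ZNF658 siRNA 1. ITPRIPL2 and TENM3 followed the same arrays. Replicates 1 and 2 of ZNF658 siRNA 2 and replicates 2 and 3 of control siRNA 1 were the high arrays for each of these genes, with control siRNA 2 replicate 3 also high for IGF2, EXPH5 and TENM3. The part of this split in the results above was not tested. On replicate 3 of ZNF658 siRNA 2, CGB1, KYNU and CDH10 still lay far from ZNF658 siRNA 1. SPRR2G, KYNU and TNFRSF1B lay nearer to ZNF658 siRNA 1 there than on replicates 1 and 2, and CDH10 lay farther.

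**Figure D5:**
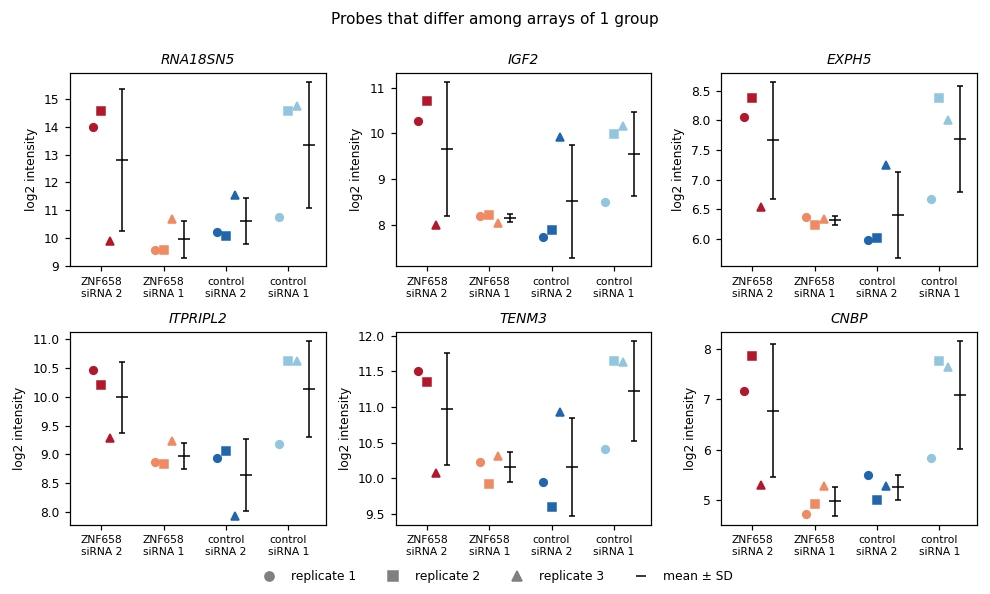
Normalized log2 intensity (vertical axes) of RNA18SN5, IGF2, EXPH5, ITPRIPL2, TENM3 and CNBP on each array of the 4 groups, with the mean ± SD of 3 arrays. Replicates 1 and 2 of ZNF658 siRNA 2 and replicates 2 and 3 of control siRNA 1 stand above the other arrays of their groups, as for RNA18SN5 at 13.99 and 14.55 against 9.88 with ZNF658 siRNA 2.

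In each list of other cell types 1 gene was called, beside 1.93% of all tested probes. Of 23 fibroblast genes, 7 were tested, and their summed linear intensity was 11400 to 14400 with ZNF658 siRNA 2 and 7610 to 7920 with ZNF658 siRNA 1, while the median difference of the 7 was −0.0187. S100A4, a calcium-binding protein of motile cells, was the 1 call (0.86, adjusted P = 0.0018, called in both probes). Of 19 immune cell genes, 4 were tested, with sums of 1830 to 2430 with ZNF658 siRNA 2 and 3240 to 3570 with ZNF658 siRNA 1, and LCP1, an actin bundler of leukocytes, was the 1 call (−0.84). The sums on the control arrays were 9920 to 12000 with control siRNA 2 and 7600 to 7850 with control siRNA 1 for fibroblast genes, and 1390 to 2210 with control siRNA 2 and 2930 to 3360 with control siRNA 1 for immune genes. The share of other cells in these differences was not tested, and fewer cells of a type cannot be told apart from less RNA per cell.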

How the data were processed

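Total RNA of 12 Caco-2 samples (4 groups of 3) was hybridised to Illumina HT12 bead chips. The deposited intensity of each probe is raw, not normalized between arrays. With it the authors exported a p-value for detection above negative controls. The deposited log2 table of values transformed and normalized by the authors, who name lumi (version not given in the sources used here), served as an alternative. Background correction and quantile normalization used neqc (offset 16) in limma 3.58.1, R 4.3.3. Testing was limited to probes that in some group had a detection p-value under 0.01 on each of its 3 arrays. Of the 14804 probes, 11868 carry 1 gene symbol (9203 genes) and 2936 are unnamed here. One limma model (lmFit, eBayes with trend) held all 12 arrays, and calls were made at 1.2-fold and 0.05 after adjustment by Benjamini and Hochberg's method. This fit was tested on simulated data. Named genes were a fixed set, the 15 called probes each way with the largest change, and called members of each list (at most 6, or the 2 with the smallest P), with others said to be chosen after their values were seen. For probes detected on no array of the dimmer group, "at least N-fold" sets the brighter group's mean against the dimmer group's mean of, per array, the higher of the lowest detected signal and the probe's own. The members and lists were chosen with earlier results of these data known. The number of arrays limits the precision. Motifs were searched on both strands of the 250 bases before each RefSeq start. Alternatives covered normalization, detection filter, arrays in the fit, array weights (statmod 1.5.0), replicate block, fold minimum, a rank product test and leaving out each array.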

Additional observations from a re-analysis of the deposited data

How the results depend on the processing

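The number of calls between ZNF658 siRNA 2 and ZNF658 siRNA 1 (285) was 282 without background correction, 228 in the authors' table, 284 with detection required in a ZNF658 siRNA group and 285 without a fold minimum. It was 169 after median scaling, 182 without a detection filter, 182 with detection on all 12 arrays, 351 with only the groups compared in the fit, 170 by the rank product test and 2891 with array quality weights, where control siRNA 2 replicate 3 had a weight of 0.156. With both replicate 3 arrays of ZNF658 siRNA 2 and control siRNA 2 left out, a setting chosen after the array correlations were seen, it was 1638. Leaving out 1 array gave 107 to 795. Between control siRNA 2 and control siRNA 1 (301 calls) these counts were 169 after median scaling, 184 without a filter, 170 on all 12 arrays, 101 with only these groups, 147 by the rank product test, 2516 with array weights and 825 without both replicate 3 arrays, and leaving out 1 array gave 130 to 584. The difference of differences (0 calls) had 51 calls after median scaling, 2729 with array weights and 1467 without both replicate 3 arrays, and 0 to 31 when 1 array was left out. The causes were not tested.

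The share of called probes with the same sign between the controls (93%) was 88.3% with only the groups compared, 47.5% with array weights, 96% with the replicate block, 86.5% by the rank product test and 48.2% without both replicate 3 arrays. Leaving out 1 array gave 68% to 97.7%. Of the calls between the ZNF658 siRNAs, 16.6% were higher after median scaling, against 37.5%. Between the controls the share was 36.1% after median scaling, 8.91% with only these groups and 4.76% by the rank product test, against 24.9%. Of 2841 values of named called probes under the alternatives, 2292 kept their direction and call, 549 lost the call and 0 turned.

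Replicate numbers were not taken to pair the arrays. Deviations from the group means correlated at −0.0259, 0.135 and 0.0911 for same-numbered ZNF658 arrays and at 0.401, −0.0828 and 0.373 for same-numbered control arrays. By these deviations 3 of 12 arrays correlated best, among arrays of other groups, with one of their own number. With the replicate number as a block, 198 probes were called between the ZNF658 siRNAs, 201 between the controls and 0 in the difference of differences.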

Other observations

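Genes linked to the aryl hydrocarbon receptor were looked at after their values were seen. Besides CYP1A1, the cytochrome P450 gene CYP1B1 was lower with ZNF658 siRNA 2 than with ZNF658 siRNA 1 by a log2 difference of −1.38 (adjusted P = 0.0013 in limma), and the glucuronosyltransferase gene UGT1A6 by −1.06 (adjusted P = 0.0087). TIPARP had −0.97 (adjusted P = 0.12) and NQO1 −0.25, and neither was called. CES1, a carboxylesterase of drug metabolism chosen in the same way, was lower by −1.57 (adjusted P = 3.5e-05). Between control siRNA 2 and control siRNA 1, UGT1A6 had a larger difference of the same sign, −1.66 (adjusted P = 0.000205 in limma). The differences of the other genes of this paragraph between the controls are not given here.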
